A study of Mus musculus with 8 samples.

Results

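Genomic imprinting marks some mammalian genes so that they are transcribed from only the copy inherited from the father or only the copy inherited from the mother. Most of the marks are differences in DNA methylation set in the germ cells. The embryo keeps these with the help of the zinc finger protein ZFP57 and of DNA methyltransferases. Imprinted genes sit in domains under shared control regions, many of them act on fetal and placental growth, and noncoding RNAs such as Airn and Kcnq1ot1 silence their neighbours on the paternal chromosome, partly through Polycomb complexes in placental cells.

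The 43 imprinted genes described here were matched by symbol to the 47069 Ensembl genes of the full count tables, and all 43 were found. By textbook knowledge 23 are expressed from the paternal and 20 from the maternal allele. The parental bias of 14 of them (1 paternal, 13 maternal) is limited to a tissue, stage or isoform. They fall into 17 domains on 9 chromosomes. Of these domains 11 hold several of the 43 genes, and 36 of the genes code for protein while 7 are noncoding. The counts add up both alleles, and the labels give 1 inbred strain (C57BL/6), so no parental share can be read from them.

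The data are poly-A RNA libraries, 2 for each of 4 groups of mouse embryonic stem (ES) cells. Cas9 had been used to make cells without Pcgf3 and Pcgf5 (DKO), without Pcgf5 (Pcgf5KO) and without Pcgf3 (Pcgf3KO), and unedited cells (WT) were the controls. PCGF3 and PCGF5 are RING finger subunits of variant Polycomb repressive complexes that ubiquitinate histone H2A. The medium of all groups held serum and leukemia inhibitory factor, and the cells grew on a feeder layer of mouse embryonic fibroblasts treated with mitomycin, which can add RNA to each library. The labels do not say whether a knockout is 1 clone or whether the libraries of a group came from separate cultures, so p-values measure the spread between these libraries, which may be technical.

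The 7 full tables held 12652616 to 19923964 counts. The table of WT replicate 1 breaks off after 8093 genes (17.2% of the list, 3459002 counts) and covers 6 of the 43 genes, so every comparison with WT below rests on WT replicate 2 alone unless 8 libraries are named. The DKO libraries were the furthest apart, with a chi-square per gene of 20 between them, against 1.94 between the Pcgf5KO and 3.51 between the Pcgf3KO libraries. Pcgf3 was present at 86.6 and 67.2 CPM (counts scaled to the size of the library) in DKO, 66.1 and 60.5 CPM in Pcgf3KO and 110 CPM in WT. Pcgf5 was present at 13.5 and 13.9 CPM in DKO, 12.3 and 9.06 CPM in Pcgf5KO and 20.7 CPM in WT. The transcripts were thus still counted in the edited cells, and whether the proteins were lost cannot be read from them. The defining ES cell gene Pou5f1 had 196 to 261 CPM in all 7 libraries. Differences were tested with edgeR's quasi-likelihood test, with Benjamini-Hochberg adjustment over the 15669 genes tested, and an adjusted p up to 0.05 is a call. Fold changes are given with standard errors, and mean CPM with the SD of 2 libraries.

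The promoters below are shown because these 4 genes fell in both DKO and Pcgf3KO, and because the hexamer TGCCGC is the core of the sequence that ZFP57 binds when methylated. Each is the stretch from 250 bases before to 50 bases after an annotated start in RefSeq (GRCm38.p6, the build that the browser name mm10 stands for), written 5′ to 3′ on the gene's strand, with TGCCGC or its reverse complement GCGGCA in capitals. Igf2 is at chr7:142661222-142661521, minus strand, Grb10 at chr11:12037371-12037670, minus strand, Mest at chr6:30737800-30738099, plus strand and Nnat at chr2:157559828-157560127, plus strand.
Igf2: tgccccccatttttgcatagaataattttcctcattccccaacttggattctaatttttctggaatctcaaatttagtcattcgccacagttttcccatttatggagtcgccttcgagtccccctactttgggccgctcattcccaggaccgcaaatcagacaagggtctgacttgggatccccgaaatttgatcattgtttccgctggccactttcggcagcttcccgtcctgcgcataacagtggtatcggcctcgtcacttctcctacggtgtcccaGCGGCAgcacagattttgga
Grb10: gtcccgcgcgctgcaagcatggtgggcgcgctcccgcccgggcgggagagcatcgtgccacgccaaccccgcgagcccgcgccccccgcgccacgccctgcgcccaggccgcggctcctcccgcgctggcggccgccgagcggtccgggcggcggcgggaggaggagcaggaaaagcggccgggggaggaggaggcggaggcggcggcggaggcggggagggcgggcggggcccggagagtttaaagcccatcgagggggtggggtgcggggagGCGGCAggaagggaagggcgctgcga
Mest: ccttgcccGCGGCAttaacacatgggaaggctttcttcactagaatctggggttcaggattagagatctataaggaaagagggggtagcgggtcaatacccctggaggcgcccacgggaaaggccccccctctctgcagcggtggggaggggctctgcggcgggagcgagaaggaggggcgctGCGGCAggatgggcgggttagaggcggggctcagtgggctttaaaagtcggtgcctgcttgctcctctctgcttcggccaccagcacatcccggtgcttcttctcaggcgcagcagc
Nnat: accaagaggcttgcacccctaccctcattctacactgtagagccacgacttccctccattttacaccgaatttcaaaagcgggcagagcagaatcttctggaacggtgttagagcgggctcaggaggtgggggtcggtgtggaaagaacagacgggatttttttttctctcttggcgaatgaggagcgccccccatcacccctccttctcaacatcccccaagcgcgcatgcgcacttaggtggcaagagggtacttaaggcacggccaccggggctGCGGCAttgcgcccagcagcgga
The Mest window held the hexamer 2 times and the other 3 windows held it 1 time each. These windows were chosen because they hold it: of the 4 windows matched for Igf2 3 lack it, of the 2 for Grb10 1, of the 3 for Mest 1, and Nnat has 1 window. The CG dinucleotide occurred 14 times in the Igf2, 45 times in the Grb10, 17 times in the Mest and 17 times in the Nnat window. RefSeq windows were matched for 36 of the 43 genes (54 windows). Their median CG count was 13, against 7 over all 32851 windows. At least 1 window held the hexamer on either strand in 5 of the 8 called genes with a window (the 4 above and Plagl1) and in 5 of the 28 genes not called (Zim1, Commd1, Snrpn, Meg3 and Mcts2). Of all 27025 genes with a window, 13.1% held it. The 8 called genes include Asb4, called in the fit of all 8 libraries, and leave out Peg10, which has no window. A gene with more windows can hold the hexamer more easily, and the number of windows was not matched. By window the share was 11.6% of all, and 21% of the 15982 windows with at least 8 CG dinucleotides. A match here is a run of letters and says nothing of binding.

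Against WT, 7 of the 42 tested genes were called lower in at least 1 knockout and 0 were called higher. These comparisons share the single WT library, and the share of all genes lower in at least 1 knockout was not computed. Igf2 and Grb10 fell in DKO, Pcgf5KO and Pcgf3KO. Mest and Nnat fell in DKO and Pcgf3KO, while Peg10, Igf2r and Plagl1 passed the test in Pcgf5KO only, which by itself does not show that they differ between knockouts. In DKO 4 of 42 tested genes were lower (9.52%), against 1.89% of all genes tested. In Pcgf5KO 5 of 42 were lower (11.9%), against 1.68% of all genes, and in Pcgf3KO 4 of 42 (9.52%), against 1.28% of all genes. In the other direction 1.33% of all genes were higher in DKO, 1.31% in Pcgf5KO and 1.08% in Pcgf3KO. At an unadjusted p of at most 0.05, edgeR had 4 of the 42 genes higher in DKO (9.52%, against 9.73% of all genes), 4 in Pcgf5KO (9.52%, against 9.73%) and 5 in Pcgf3KO (11.9%, against 7.65%). At the same unadjusted p 10 of the 42 were lower in each knockout (23.8%), against 9.64% of all genes in DKO, 9.75% in Pcgf5KO and 8.26% in Pcgf3KO. With DESeq2 Ppp1r9a was higher in DKO, none in Pcgf5KO and Ascl2 in Pcgf3KO. Among the falls DESeq2 added Nnat in Pcgf5KO and Phlda2 in Pcgf3KO, and lost Igf2 in DKO and Plagl1 in Pcgf5KO. Only Kcnq1, a potassium channel gene with 4 to 10 counts a library, had too few counts to be tested. The comparison is not matched for level: 25 of the 43 genes averaged at least 10 CPM, beside 9147 of the 15669 genes tested.

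**Figure D1:**
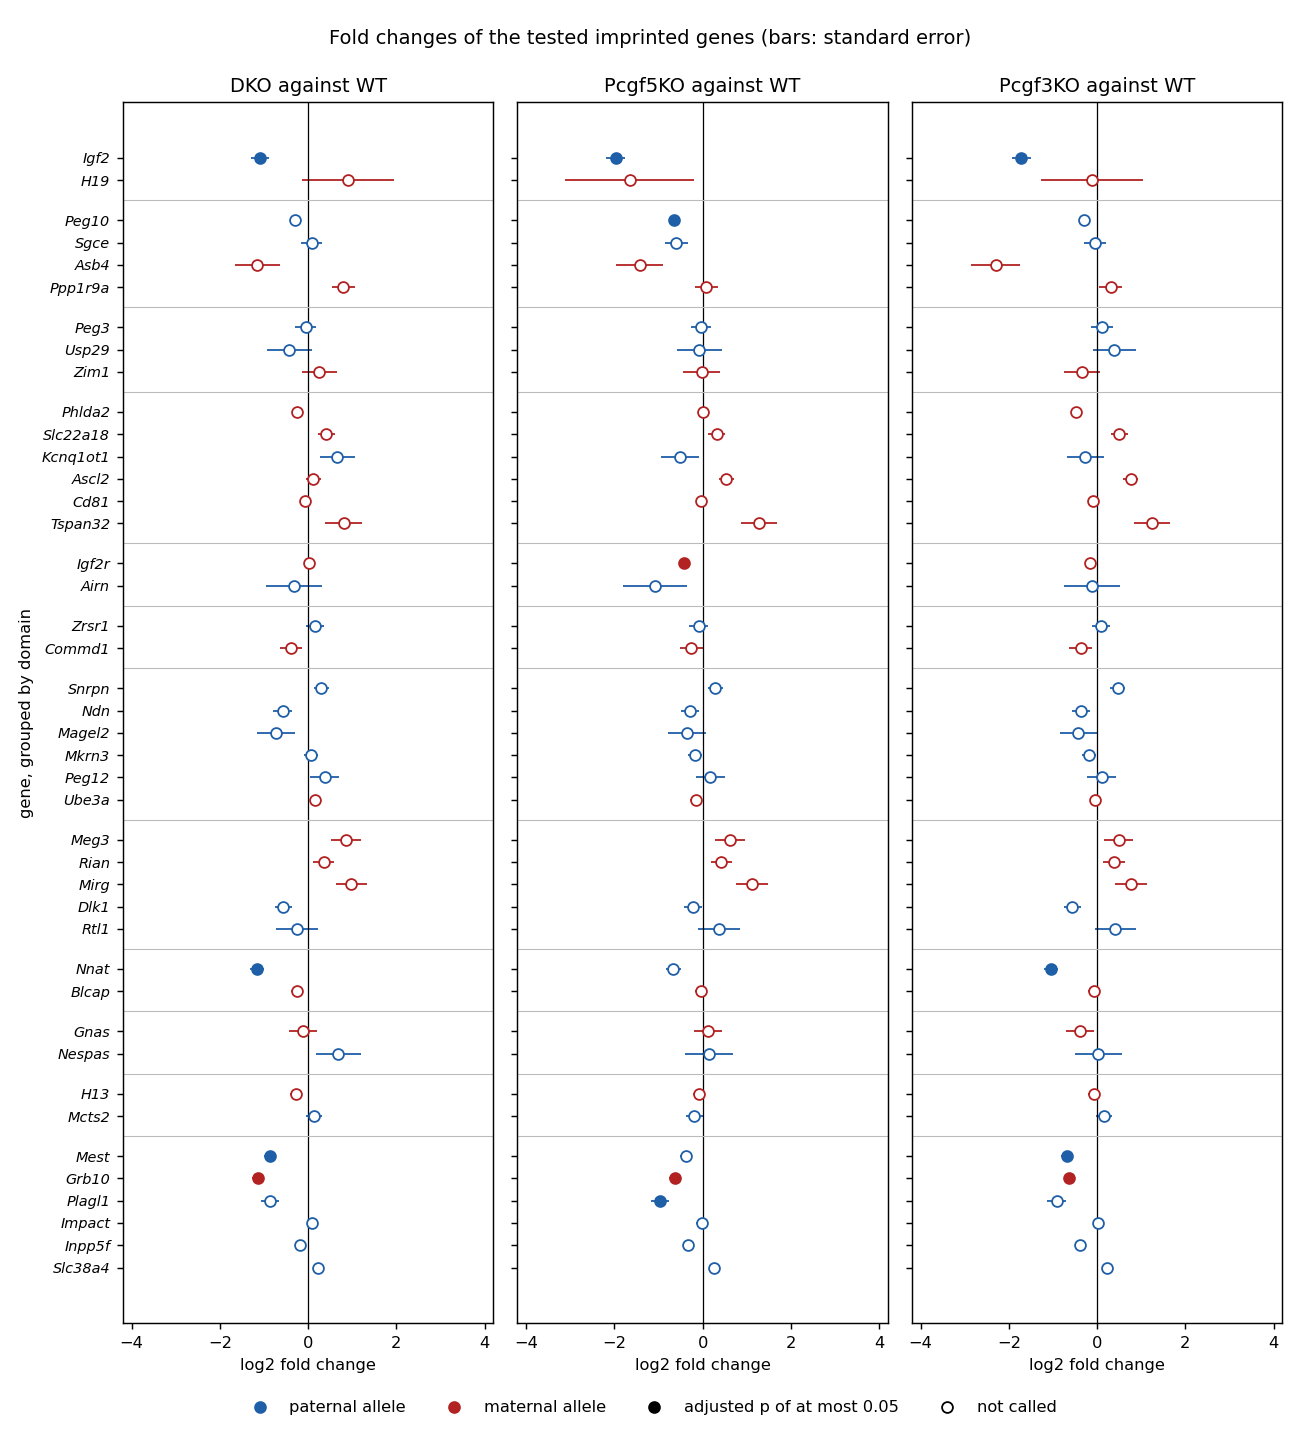
Log2 fold change of each tested imprinted gene (rows, grouped by domain) in DKO, Pcgf5KO and Pcgf3KO against WT replicate 2. Points are fitted values, bars standard errors, blue the paternal and red the maternal allele, and filled points passed an adjusted p of 0.05. All 13 filled points lie left of 0.

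Of 23 paternally expressed genes 3 were lower in DKO, 3 in Pcgf5KO and 3 in Pcgf3KO, and of 19 maternally expressed genes 1, 2 and 1. Of all genes tested 1.89% were lower in DKO, 1.68% in Pcgf5KO and 1.28% in Pcgf3KO. The median log2 fold change of the paternal genes was -0.19 in DKO, -0.22 in Pcgf5KO and -0.11 in Pcgf3KO. That of the maternal genes was 0.11 in DKO, -0.02 in Pcgf5KO and -0.08 in Pcgf3KO. Over all genes tested the median was 0.01 in DKO and 0.00 in both single knockouts. Fitted values lay below 0 for 13 of 23 paternal genes in DKO, 18 of 23 in Pcgf5KO and 13 of 23 in Pcgf3KO. Of the maternal genes 8 of 19 in DKO, 10 of 19 in Pcgf5KO and 12 of 19 in Pcgf3KO lay below 0. Over all genes tested the shares below 0 were 48.4% in DKO, 49.3% in Pcgf5KO and 49.7% in Pcgf3KO. The 7 maternal genes with no limit to a tissue or stage had medians of 0.41 in DKO, 0.32 in Pcgf5KO and 0.38 in Pcgf3KO, with 0 of 7 called in each. These 7 include Meg3, Rian and Mirg, neighbours in the Dlk1-Meg3 domain, and H19 with 0 to 13 counts a library. The 22 paternal genes with no such limit had medians of -0.16 in DKO, -0.20 in Pcgf5KO and -0.07 in Pcgf3KO. These medians describe the lists, and no test of paternal against maternal genes was made.

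Per kilobase of exon the WT library had the highest levels at Phlda2 (125 CPM per kb), Peg10 (105), Grb10 (60.6), Mest (57.4), Cd81 (47.5) and Igf2 (46.8). In the knockouts Igf2 moved down this order, to 22.0 CPM per kb in DKO, 12 in Pcgf5KO and 14.2 in Pcgf3KO on average. The lowest levels in WT were those of Kcnq1ot1 (0.0428 CPM per kb over an exon length of 93.1 kb), Usp29 (0.0535) and Kcnq1 (0.0556). A single WT library gives no spread for this order.

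Igf2, the fetal growth factor gene (ENSMUSG00000048583, chromosome 7, 142650766 to 142666816, mm10), had the largest falls in both single knockouts among the 8 genes called in the 7-library fit, while in DKO Nnat and Grb10 fell slightly more. It had 95.0 and 157 CPM in DKO, 67.0 and 69.8 CPM in Pcgf5KO, 78.6 and 83.9 CPM in Pcgf3KO, against 268 CPM in WT. All 6 knockout libraries lay below the WT library, and both DKO libraries lay above the 4 single-knockout libraries. The means were 126 ± 43.9 CPM in DKO, 68.4 ± 1.98 CPM in Pcgf5KO and 81.3 ± 3.74 CPM in Pcgf3KO. Against WT the log2 fold change was -1.09 ± 0.21 in DKO (adjusted p = 0.0292), -1.97 ± 0.22 in Pcgf5KO (adjusted p = 0.00258) and -1.72 ± 0.21 in Pcgf3KO (adjusted p = 0.00485). DKO was higher than Pcgf5KO by 0.88 ± 0.19 (adjusted p = 0.0466), and the difference from Pcgf3KO was 0.63 ± 0.18 (adjusted p = 0.13). The interaction, the change in DKO less the changes of both single knockouts added up, was 2.60 ± 0.29 (adjusted p = 0.0031), so that the fall in DKO was smaller than the single falls added on the log2 scale. The DKO fall was not called without any one of the 4 single-knockout libraries (adjusted p = 0.0723 to 0.0819), nor with DESeq2 (0.0503). The difference between DKO and Pcgf5KO was lost without any one of those 4 libraries as well (adjusted p = 0.123 to 0.39). The Pcgf5KO fall was lost without Pcgf5KO replicate 1 (adjusted p = 0.0504), and the Pcgf3KO fall without Pcgf3KO replicate 1 or 2 (adjusted p = 0.0702 and 0.0569). The interaction stayed called without any one of the 6 knockout libraries, and WT replicate 2, on which it rests, could not be left out. The kit does not mark strand, and 1.7% of the exon bases of Igf2 also lie in exons of Igf2os. Reads from that antisense gene cannot be told apart there. H19, the maternal noncoding RNA that shares the control region of Igf2, had 4 and 13 counts in DKO, 2 and 0 in Pcgf5KO, 6 and 2 in Pcgf3KO, against 4 in WT. H19 was not called in any comparison of the 7-library fit. Without DKO replicate 1 it was called higher in DKO than in Pcgf5KO, on these few counts.

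Igf2r encodes the receptor that binds IGF2 and carries it to lysosomes, and is expressed from both alleles in undifferentiated ES cells. It had 132 and 135 CPM in DKO, 102 and 93.6 CPM in Pcgf5KO, 119 and 117 CPM in Pcgf3KO, against 132 CPM in WT. Both Pcgf5KO libraries were below all others, and DKO and WT were level. It fell in Pcgf5KO against WT (-0.43 ± 0.09, adjusted p = 0.0444) and was higher in DKO than in Pcgf5KO (0.45 ± 0.08, adjusted p = 0.0291). The interaction was 0.61 ± 0.12 (adjusted p = 0.0289). Without any one of the 4 single-knockout libraries none of the 3 calls passed (adjusted p = 0.11 to 0.404). Airn, the paternal antisense RNA whose transcription silences Igf2r after differentiation, had 3 to 11 counts a library and was not called.

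Grb10, whose adaptor protein restrains signalling from the insulin and IGF receptors, had 218 and 283 CPM in DKO, 352 and 358 CPM in Pcgf5KO, 361 and 351 CPM in Pcgf3KO, against 550 CPM in WT. The DKO libraries were lowest, the single knockouts lay together, and WT was above all 6. The falls against WT were -1.14 ± 0.13 in DKO (adjusted p = 0.00229), -0.63 ± 0.13 in Pcgf5KO (adjusted p = 0.0345) and -0.63 ± 0.13 in Pcgf3KO (adjusted p = 0.0394). DKO was lower than Pcgf5KO by a log2 value of -0.50 ± 0.11 (adjusted p = 0.0492), and the difference from Pcgf3KO was -0.51 ± 0.11 (adjusted p = 0.053). The interaction was 0.13 ± 0.17 (adjusted p = 0.696). The DKO fall stayed called without any one of the 6 knockout libraries. Each single-knockout fall was lost without any one of the 4 single-knockout libraries (adjusted p = 0.1 to 0.275), and the difference between DKO and Pcgf5KO without any of them or without WT replicate 2 (adjusted p = 0.051 to 0.392).

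Plagl1, a zinc finger transcription factor gene, had 5.53 and 5.98 CPM in DKO, 4.79 and 6.07 CPM in Pcgf5KO, 5.44 and 5.70 CPM in Pcgf3KO, against 10.5 CPM in WT. The 6 knockout libraries lay within 1 narrow range below WT. The fold change passed in Pcgf5KO (-0.97 ± 0.21, adjusted p = 0.0438) and missed in DKO (-0.87 ± 0.20, adjusted p = 0.0545) and Pcgf3KO (-0.92 ± 0.21, adjusted p = 0.0532). DKO and Pcgf5KO differed by 0.10 ± 0.19 (adjusted p = 0.772). The Pcgf5KO call was lost with DESeq2 (adjusted p = 0.0856), with the replicate number as a term (0.0545) and without any one of the 4 single-knockout libraries (0.125 to 0.336).

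Mest, which encodes a hydrolase-like protein, had 109 and 139 CPM in DKO, 175 and 174 CPM in Pcgf5KO, 143 and 139 CPM in Pcgf3KO, against 226 CPM in WT. WT was highest, and Pcgf5KO lay above the other knockouts. It fell in DKO (-0.87 ± 0.13, adjusted p = 0.00858) and in Pcgf3KO (-0.69 ± 0.13, adjusted p = 0.0275), and the value in Pcgf5KO was -0.38 ± 0.13 (adjusted p = 0.161). The differences of DKO from Pcgf5KO (-0.49 ± 0.11, adjusted p = 0.0529) and of Pcgf5KO from Pcgf3KO (0.31 ± 0.11, adjusted p = 0.499) did not pass. The DKO fall stayed called without any one of the 6 knockout libraries, and the Pcgf3KO fall was lost without any one of the 4 single-knockout libraries (adjusted p = 0.0945 to 0.226). Of the exon bases of Mest 23.1% also lie in exons of another gene, Copg2 on the other strand, so the count may hold reads of that gene.

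Nnat, which encodes neuronatin, a small membrane protein of the endoplasmic reticulum, had 17.2 and 22.1 CPM in DKO, 29.2 and 26.2 CPM in Pcgf5KO, 20 and 23.2 CPM in Pcgf3KO, against 44.2 CPM in WT. It fell in DKO (-1.17 ± 0.16, adjusted p = 0.00641) and in Pcgf3KO (-1.04 ± 0.16, adjusted p = 0.0142), and the value in Pcgf5KO was -0.67 ± 0.17 (adjusted p = 0.0689). DESeq2 called Nnat lower in Pcgf5KO as well. The Pcgf3KO call was lost without Pcgf3KO replicate 1 (adjusted p = 0.155) or 2 (0.0851). Blcap, the gene in whose intron Nnat lies, had 27.1 and 24.1 CPM in DKO, 28.7 and 30.8 CPM in Pcgf5KO, 29.0 and 28.6 CPM in Pcgf3KO, against 30.6 CPM in WT. Its fold changes were -0.26, -0.04 and -0.08 in DKO, Pcgf5KO and Pcgf3KO, none of them called, while Nnat inside it fell.

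**Figure D2:**
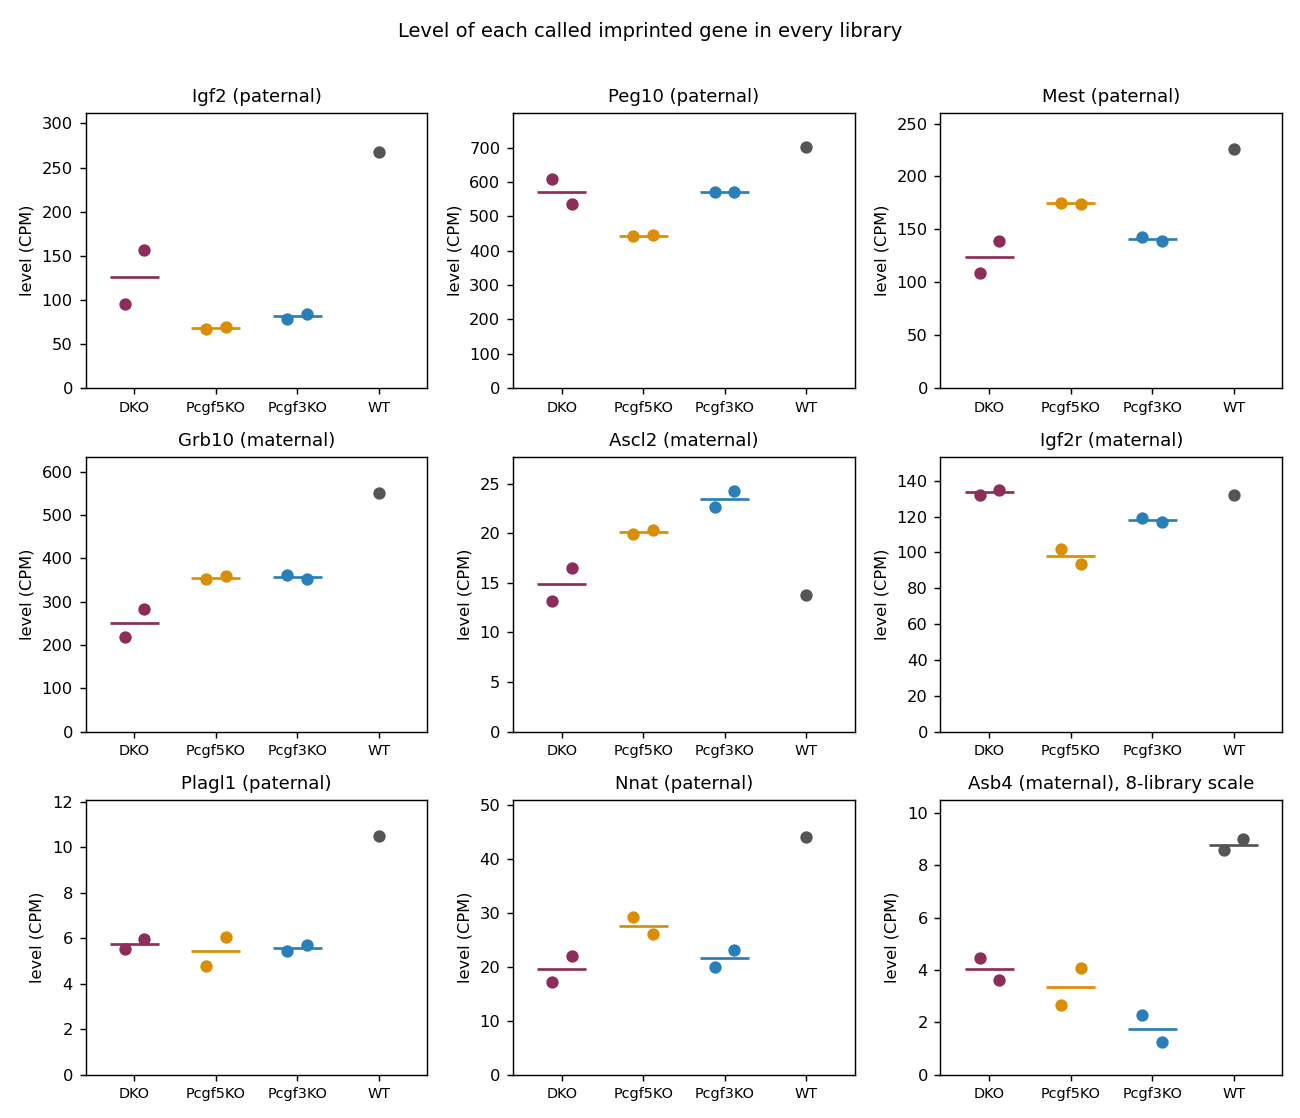
CPM of each called imprinted gene in every library (points) with the group mean (line), for DKO, Pcgf5KO, Pcgf3KO and WT. WT is replicate 2 alone, except for Asb4, shown on the scale of the 8-library fit with both WT libraries. Igf2, Grb10, Mest, Nnat, Plagl1, Peg10 and Asb4 have all knockout libraries below WT.

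The Peg10-Sgce domain on chromosome 6 held 2 called genes. Peg10, a retrotransposon-derived gene needed for the placenta, had 609 and 535 CPM in DKO, 442 and 445 CPM in Pcgf5KO, 570 and 571 CPM in Pcgf3KO, against 701 CPM in WT. Pcgf5KO was the lowest group and did not overlap with any other. Peg10 fell in Pcgf5KO against WT (-0.66 ± 0.09, adjusted p = 0.00752), and was higher in DKO than in Pcgf5KO (0.37 ± 0.08, adjusted p = 0.0453). Against WT it was -0.29 ± 0.09 in DKO (adjusted p = 0.133) and -0.30 ± 0.09 in Pcgf3KO (adjusted p = 0.146), and the interaction was 0.66 ± 0.12 (adjusted p = 0.0188). The fall was lost without Pcgf5KO replicate 1 or 2 (adjusted p = 0.128 and 0.12), and both other calls without any one of the 4 single-knockout libraries (0.124 to 0.393).

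Sgce, which shares its promoter region with Peg10 and encodes a sarcoglycan, had 6.53 and 9.34 CPM in DKO, 5.33 and 4.53 CPM in Pcgf5KO, 7.15 and 7.44 CPM in Pcgf3KO, against 7.52 CPM in WT. Pcgf5KO was lowest here too, with a fitted -0.60 ± 0.26 against WT that was not called (adjusted p = 0.24). Ppp1r9a, the gene of the actin-binding protein neurabin, had 61.7 and 36.4 CPM in DKO, 29.1 and 30.5 CPM in Pcgf5KO, 37.6 and 32.4 CPM in Pcgf3KO, against 28.2 CPM in WT. Its fitted 0.80 ± 0.26 in DKO was not called (adjusted p = 0.146), and DKO replicate 1 was the highest library.

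Asb4, a gene for an ankyrin repeat protein of ubiquitin ligases, is 1 of 5 genes that could be tested with all 8 libraries. It had 15 and 13 counts in DKO, 8 and 9 in Pcgf5KO, 8 and 4 in Pcgf3KO, against 30 and 28 in WT. On the scale of the genes listed in all 8 tables these are 4.05 ± 0.591 CPM in DKO, 3.36 ± 1.0 CPM in Pcgf5KO and 1.77 ± 0.712 CPM in Pcgf3KO, against 8.57 and 8.99 CPM in WT. All 6 knockout libraries lay below both WT libraries. Asb4 fell in Pcgf3KO (-2.27 ± 0.44, adjusted p = 0.0143), the 1 call among 5 tested, where 2.33% of all 2702 genes were lower. In DKO it was -1.11 ± 0.39 (adjusted p = 0.102) and in Pcgf5KO -1.41 ± 0.42 (adjusted p = 0.0645). The interaction was 2.57 ± 0.65 (adjusted p = 0.0387, with 3.52% of all genes higher). Neither call passed without WT replicate 1 or 2, or without Pcgf3KO replicate 1 or 2 (adjusted p = 0.0731 to 0.192). The interaction was also lost without Pcgf5KO replicate 1 or 2 or DKO replicate 1 (0.0529 to 0.197). In the 7-library fit the fall was -2.30 ± 0.55 (adjusted p = 0.0665). The other 4 genes with all 8 libraries (Zim1, Rian, Nespas and Inpp5f) were not called in any comparison of that fit.

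Against the single knockouts, DKO was higher in 3 of 42 tested genes and lower in 1 when set against Pcgf5KO (Igf2, Peg10 and Igf2r higher, Grb10 lower), where 0.996% of all genes were higher and 1.28% lower. Against Pcgf3KO, 0 were higher and 1, Ascl2, was lower, where 0.734% of all genes were higher and 1% lower. At an unadjusted p of at most 0.05 edgeR had 5 of 42 higher in that comparison (11.9%, against 9.45% of all genes), and DESeq2 called 0 higher. Between Pcgf5KO and Pcgf3KO 0 of 42 were called, where 0.14% of all genes were. At an unadjusted p edgeR had 3 higher and 3 lower there (7.14% each, against 4.1% and 4.4% of all genes), and DESeq2 called Phlda2 higher and Peg10 lower in Pcgf5KO. The interaction was called for 4 of 42 genes (Igf2, Peg10 and Igf2r above 0, Ascl2 below), where 3.79% of all genes were called (1.77% above and 2.02% below 0). These comparisons share libraries with those against WT, so their calls are not independent of them.

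Of the 43 genes, 6 of the Kcnq1 domain on chromosome 7 were tested, and 1 of them was called in the 7-library fit: Ascl2, a transcription factor gene needed for trophoblast precursors. Ascl2 had 13.2 and 16.5 CPM in DKO, 19.9 and 20.3 CPM in Pcgf5KO, 22.6 and 24.2 CPM in Pcgf3KO, against 13.8 CPM in WT. Both single knockouts lay above WT and above both DKO libraries. DKO was lower than Pcgf3KO by a log2 value of -0.66 ± 0.13 (adjusted p = 0.0436), and the interaction was -1.2 ± 0.22 (adjusted p = 0.0189). Against WT Ascl2 was 0.11 ± 0.17 in DKO (adjusted p = 0.762), 0.54 ± 0.17 in Pcgf5KO (adjusted p = 0.133) and 0.76 ± 0.17 in Pcgf3KO (adjusted p = 0.0519). Both calls were lost without any one of the 4 single-knockout libraries (adjusted p = 0.0893 to 0.427).

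Phlda2, which restricts placental growth, had 108 and 126 CPM in DKO, 143 and 139 CPM in Pcgf5KO, 100 and 102 CPM in Pcgf3KO, against 140 CPM in WT. Its value in Pcgf3KO was -0.47 ± 0.11 (adjusted p = 0.0584), and DESeq2 called it lower there. Slc22a18, a transporter gene, had 10.3 and 12 CPM in DKO, 11.4 and 9.54 CPM in Pcgf5KO, 11.7 and 12.1 CPM in Pcgf3KO, against 8.43 CPM in WT, with fitted values of 0.41, 0.32 and 0.50. The tetraspanin gene Cd81 stayed at 125 to 137 CPM in all 7 libraries, with fold changes from -0.09 to -0.04 against WT. Tspan32, a related gene, had 1.53 and 1.28 CPM in DKO, 1.95 and 1.94 CPM in Pcgf5KO, 1.96 and 1.85 CPM in Pcgf3KO, against 0.797 CPM in WT. With 14 counts in WT, Tspan32 was not called (adjusted p = 0.142 to 0.323), but it was higher in Pcgf5KO and Pcgf3KO when the DKO libraries were left out. Kcnq1ot1, the noncoding RNA that silences the domain in placenta, had 8.43 and 4.25 CPM in DKO, 2.31 and 3.40 CPM in Pcgf5KO, 3.58 and 3.02 CPM in Pcgf3KO, against 3.99 CPM in WT. DKO replicate 1 was the highest for it, and no comparison was called in the 7-library fit. With the replicate number as a term Kcnq1ot1 was called higher in DKO than in Pcgf5KO, where 9.78% of all genes were called. Without the filter on low counts it was called higher in DKO than in either single knockout, and its interaction was called above 0.

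The Dlk1-Meg3 domain on chromosome 12 had 0 of 5 genes called in the 7-library fit. Its 3 maternal noncoding RNAs, which host small RNAs, were fitted above 0 in all knockouts. Meg3 had 139 and 66.2 CPM in DKO, 83.5 and 90.0 CPM in Pcgf5KO, 85.8 and 72.6 CPM in Pcgf3KO, against 56.3 CPM in WT. Rian had 259 and 151 CPM in DKO, 220 and 209 CPM in Pcgf5KO, 212 and 206 CPM in Pcgf3KO, against 160 CPM in WT. The DKO libraries thus lay on both sides of the single knockouts for both RNAs. Fold changes of Meg3, Rian and Mirg against WT ran from 0.35 to 1.11 (adjusted p = 0.144 to 0.539). Without the filter on low counts Meg3 and Rian were called higher in all 3 knockouts and Mirg in DKO and Pcgf5KO, and without the DKO libraries all 3 RNAs were called higher in Pcgf5KO and Pcgf3KO. With WT replicate 1 added, Rian was at 0.29 ± 0.18 in DKO, 0.35 ± 0.18 in Pcgf5KO and 0.32 ± 0.18 in Pcgf3KO (adjusted p = 0.26 to 0.352). Dlk1, the paternal gene for a Notch-like membrane protein, had 8.17 and 11.1 CPM in DKO, 12.2 and 12.1 CPM in Pcgf5KO, 9.37 and 9.84 CPM in Pcgf3KO, against 14.2 CPM in WT. Its fitted values were -0.56 ± 0.20 in DKO, -0.22 ± 0.20 in Pcgf5KO and -0.56 ± 0.20 in Pcgf3KO (adjusted p = 0.171 to 0.581). Rtl1, a paternal retrotransposon-derived gene, had 14 to 32 counts.

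In the Snrpn domain 0 of 6 genes were called in the 7-library fit, where 2.36% to 3.22% of all genes were called against WT. Without the filter on low counts Ndn was called lower in DKO against WT, and Ube3a higher in DKO than in Pcgf5KO. With both DKO libraries left out Snrpn was called higher in Pcgf5KO and Pcgf3KO, and Ndn lower in Pcgf3KO. Of all genes 27% and 20.7% were called there against WT. The splicing factor gene Snrpn had 22.6 and 29.7 CPM in DKO, 26.3 and 25.6 CPM in Pcgf5KO, 29.3 and 29.6 CPM in Pcgf3KO, against 21.3 CPM in WT, and 27.3% of its exon bases are shared with Snurf or another gene. Ndn, of the MAGE family, had 13.5 and 19.9 CPM in DKO, 21.4 and 19.4 CPM in Pcgf5KO, 17.8 and 21 CPM in Pcgf3KO, against 25.1 CPM in WT. The RING finger gene Mkrn3 stayed at 9.88 to 12 CPM. Ube3a, the ubiquitin ligase gene whose paternal copy is silent in neurons, had 135 and 108 CPM in DKO, 99.3 and 97.9 CPM in Pcgf5KO, 111 and 101 CPM in Pcgf3KO, against 109 CPM in WT. Fold changes of the 6 genes against WT ran from -0.74 (Magel2 in DKO) to 0.47 (Snrpn in Pcgf3KO).

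Among the other domains Peg3, a zinc finger gene, had 452 and 263 CPM in DKO, 369 and 362 CPM in Pcgf5KO, 412 and 392 CPM in Pcgf3KO, against 372 CPM in WT. Its fold changes were -0.06, -0.03 and 0.11 in DKO, Pcgf5KO and Pcgf3KO. Slc38a4, an amino acid transporter gene, had 191 and 174 CPM in DKO, 184 and 191 CPM in Pcgf5KO, 185 and 182 CPM in Pcgf3KO, against 156 CPM in WT, with fitted values of 0.23 to 0.26 that were not called (adjusted p = 0.176 to 0.261). Impact, a regulator of translation, had 113 and 93.9 CPM in DKO, 97.2 and 93.9 CPM in Pcgf5KO, 99.5 and 99.0 CPM in Pcgf3KO, against 97.1 CPM in WT. The fitted values of these 3 abundant paternal genes against WT lay between -0.06 and 0.26.

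H13, a signal peptide peptidase gene, stayed at 37.8 to 49.1 CPM, and the splicing factor gene Zrsr1 at 10.5 to 14.6 CPM. Inpp5f, a phosphatase gene, had 31.4 and 30.5 CPM in DKO, 27.9 and 28.1 CPM in Pcgf5KO, 26.5 and 27.3 CPM in Pcgf3KO, against 35.2 CPM in WT, and was not called in any comparison. The remaining low genes (Usp29, Zim1, Commd1, Magel2, Peg12, Mirg, Rtl1, Gnas, Nespas and Mcts2) had 10 to 174 counts a library and 0 calls. Gnas held 36 to 56 counts. Of its exon bases 22.0% also lie in exons of other genes, so its count is uncertain.

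**Figure D3:**
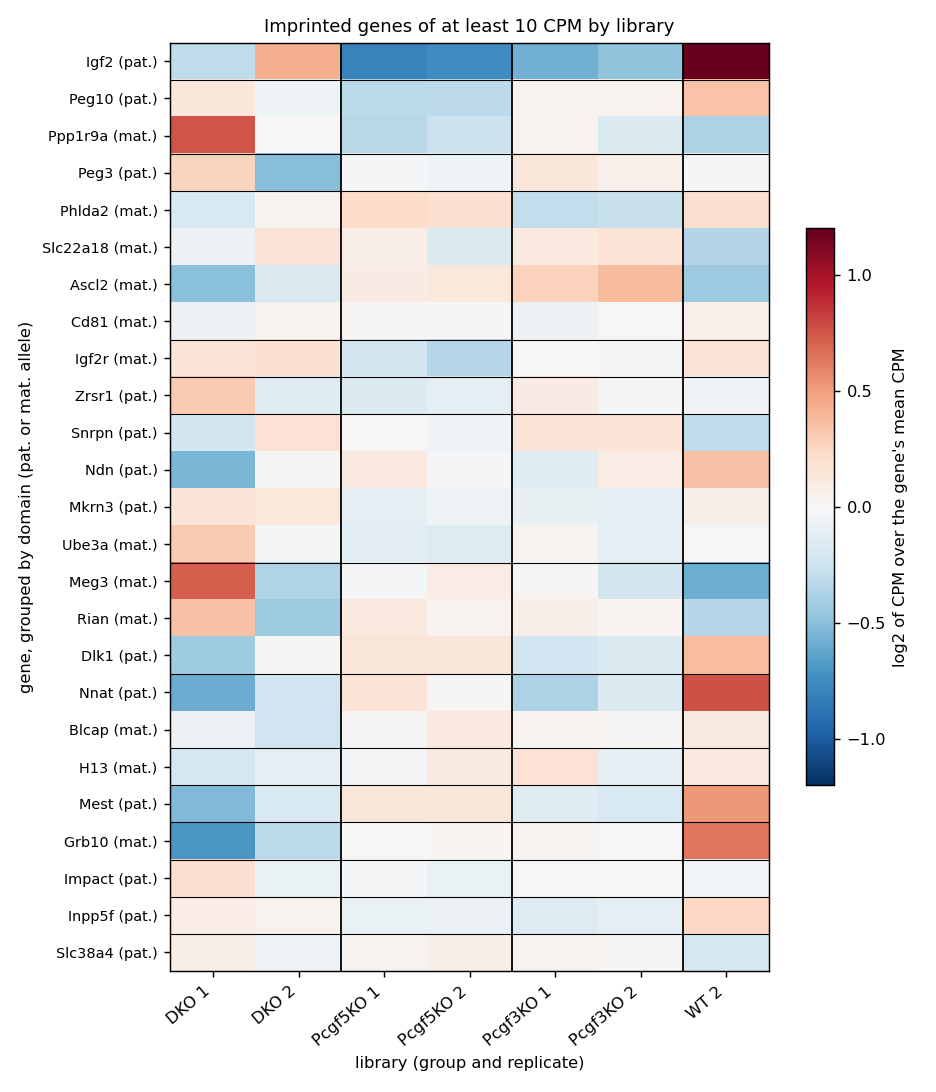
Level of the 25 imprinted genes of at least 10 CPM in each library, as the log2 of the CPM over the gene's mean over the 7 libraries (red above, blue below). Rows are grouped by domain and columns run from DKO to WT. The DKO libraries differ at Igf2, Peg3, Ndn, Meg3 and Rian, and the highest entries of Igf2, Nnat, Mest and Grb10 stand in the WT column.

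The DKO libraries disagreed at many of these genes. Of the 25 genes of at least 10 CPM, 13 differed by more than 1.25-fold between the DKO libraries, 0 between the Pcgf5KO and 0 between the Pcgf3KO libraries. Over all 9147 genes of that level the shares were 23.9% in DKO, 1.61% in Pcgf5KO and 1.51% in Pcgf3KO. DKO replicate 1 was higher for Meg3 (ratio 2.1 to replicate 2), Peg3 (1.72), Rian (1.72) and Ppp1r9a (1.7). It was lower for Igf2 (0.605), Ndn (0.678), Dlk1 (0.736) and Snrpn (0.761). The ratio moved with exon length over all genes, from a median log2 of -0.19 under 2 kb to 0.29 at 16 kb and more. Meg3 and Rian have exon lengths of 18.1 and 18.2 kb, Igf2 has 5.72 kb. Pcgf5KO against WT also moved with length, from 0.16 under 2 kb to -0.11 at 16 kb and more. Plagl1 (7.82 kb), Peg10 (6.67 kb) and Igf2r (9.31 kb) were called against WT in Pcgf5KO and in neither other knockout. The median was -0.01 at 4 to 8 kb, the class of Plagl1 and Peg10, and -0.08 at 8 to 16 kb, that of Igf2r. The fitted values of Plagl1, Peg10 and Igf2r were -0.97, -0.66 and -0.43. The part of length in these results was not tested.

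**Figure D4:**
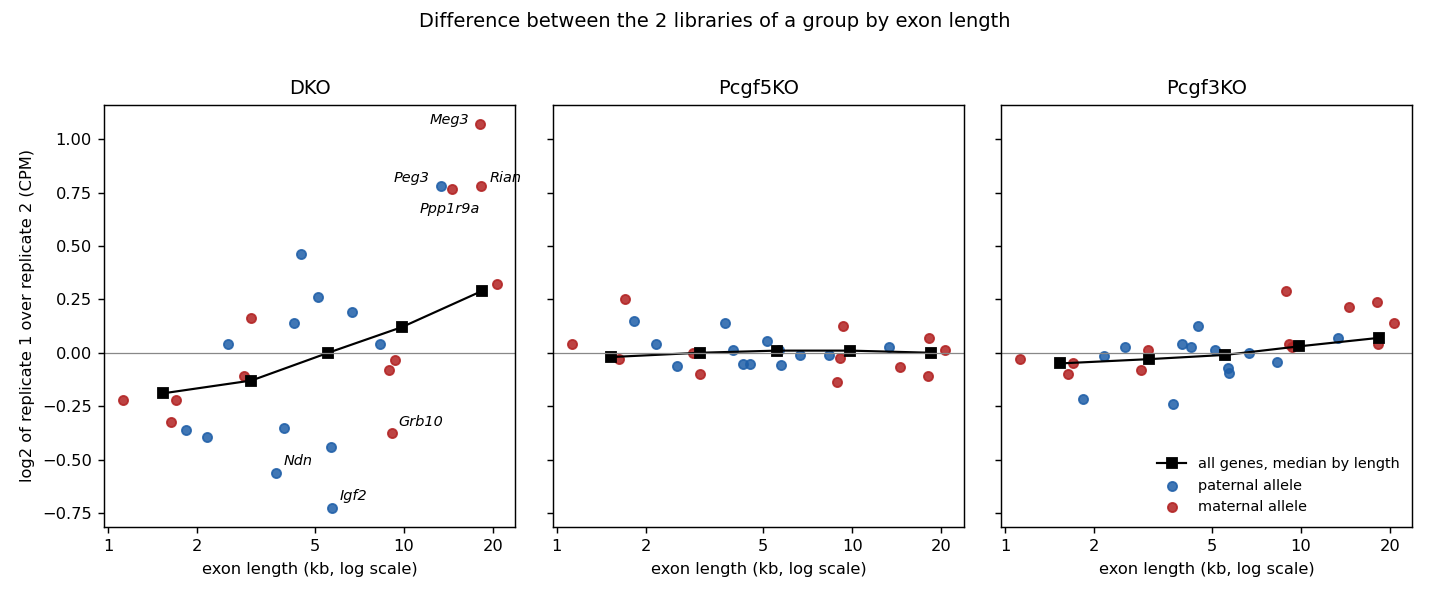
Log2 ratio of the CPM of replicate 1 over replicate 2 (y) against exon length in kb (x, log scale) for the 25 imprinted genes of at least 10 CPM in DKO, Pcgf5KO and Pcgf3KO. Squares are the medians of all genes of at least 10 CPM in 5 length classes. In DKO the line climbs from -0.19 to 0.29, with Meg3 far above and Igf2 far below it, while in Pcgf5KO it stays between -0.02 and 0.01.

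Marker lists of other cell types summed to lower levels in the knockouts than in WT, beside the 7 genes that fell. The summed CPM of 24 feeder fibroblast markers was 158 to 194 in DKO, 169 to 173 in Pcgf5KO and 132 to 145 in Pcgf3KO, against 233 in WT. Of the 19 tested 5 were lower in DKO, 1 in Pcgf5KO and 5 in Pcgf3KO, with medians of -0.36, -0.34 and -0.81. Of all genes tested 1.89% were lower in DKO, 1.68% in Pcgf5KO and 1.28% in Pcgf3KO. Col1a1, a fibrillar collagen gene of fibroblasts, had 5.32 and 6.92 CPM in DKO, 7.34 and 7.93 CPM in Pcgf5KO, 5.19 and 6.60 CPM in Pcgf3KO, against 16.2 CPM in WT. S100a4 had 0 counts in all 7 libraries, Twist2 had 0 to 2 and Postn 0 to 6. Trophoblast markers summed to 186 to 323 CPM in DKO, 298 to 300 in Pcgf5KO and 364 to 384 in Pcgf3KO, against 807 in WT. Krt8, a keratin gene of epithelia, had 69.8 and 115 CPM in DKO, 153 and 154 CPM in Pcgf5KO, 178 and 198 CPM in Pcgf3KO, against 418 CPM in WT. The placental genes Prl3d1 and Tpbpa had 0 counts throughout, and of the 9 trophoblast markers tested 4 were lower in DKO, 4 in Pcgf5KO and 3 in Pcgf3KO, with medians of -0.81, -1.44 and -0.39.

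Endoderm markers summed to 904 to 1150 CPM in DKO, 1040 to 1060 in Pcgf5KO and 948 to 1000 in Pcgf3KO, against 1430 in WT. Of 13 tested 3 were lower in DKO, 4 in Pcgf5KO and 4 in Pcgf3KO, with medians of -0.37, -0.82 and -0.69. The yolk sac genes Ttr and Afp had 0 to 3 counts a library. Neural markers summed to 207 to 252, 307 to 319 and 251 to 261 CPM in DKO, Pcgf5KO and Pcgf3KO, against 391 in WT, with 4, 2 and 3 of 8 lower and medians of -0.82, -0.49 and -0.78. Mesoderm markers summed to 22.5 to 29.2, 39.0 to 45.0 and 29.9 to 33.4 CPM, against 58.0 in WT, with 2, 1 and 2 of 8 lower and medians of -0.46, 0.03 and -0.37. No gene of these 5 lists was higher in any knockout. ES cell markers ran the other way, at 4930 to 5220 CPM in DKO, 5620 to 5650 in Pcgf5KO and 5470 to 5480 in Pcgf3KO, against 4710 in WT, with 4, 5 and 4 of 20 higher and 0 lower. Over all genes tested 1.33% were higher and 1.89% lower in DKO, 1.31% and 1.68% in Pcgf5KO, and 1.08% and 1.28% in Pcgf3KO. The part that other cells have in the falls of Igf2, Grb10, Mest, Nnat, Plagl1 and Peg10 was not tested. In these bulk libraries fewer cells of a type and less RNA per cell cannot be told apart.

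**Figure D5:**
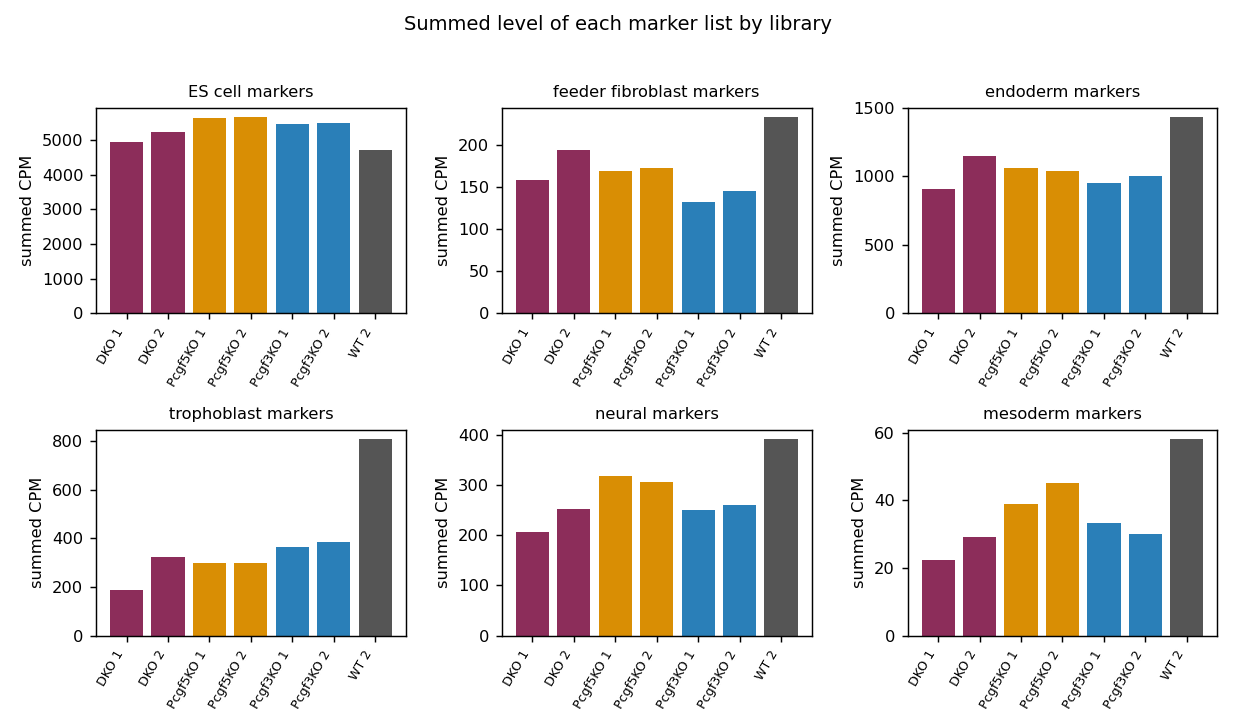
Summed CPM of the genes of each marker list in each library, with the DKO libraries left and the WT library (replicate 2) right. ES cell markers are lowest and the 5 lists of other cell types highest in the WT library.

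The machinery that reads and keeps imprints, and the partners of IGF2, were taken as lists. Of 24 genes of imprint maintenance and DNA methylation 1 was higher in DKO, 2 in Pcgf5KO and 1 in Pcgf3KO, and 0 were lower. Their medians were 0.23 in DKO, 0.11 in Pcgf5KO and 0.11 in Pcgf3KO. Over all genes tested 1.33% were higher and 1.89% lower in DKO, 1.31% and 1.68% in Pcgf5KO, and 1.08% and 1.28% in Pcgf3KO. Dnmt3l, the catalytically inactive partner of the DNA methyltransferases that set imprints in germ cells, had 484 and 501 CPM in DKO, 564 and 559 CPM in Pcgf5KO, 642 and 695 CPM in Pcgf3KO, against 212 CPM in WT. All 6 knockout libraries were above WT, and the log2 fold changes were 1.21 ± 0.09 in DKO (adjusted p = 0.000563), 1.40 ± 0.09 in Pcgf5KO (adjusted p = 0.000692) and 1.66 ± 0.09 in Pcgf3KO (adjusted p = 0.000207). Uhrf1, which brings DNMT1 to replicated DNA, rose in Pcgf5KO (0.41 ± 0.09, adjusted p = 0.0425). Zfp57 had 470 and 337 CPM in DKO, 350.0 and 360.0 CPM in Pcgf5KO, 344 and 334 CPM in Pcgf3KO, against 275 CPM in WT, and Dnmt1 410.0 to 471 CPM in all 7. Neither Zfp57 (0.30 to 0.55, adjusted p = 0.111 to 0.41) nor Dnmt1 (-0.01 to 0.16, adjusted p = 0.324 to 0.97) was called.

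Of 15 tested genes of IGF signalling 1 was higher and 3 lower in DKO, 0 and 2 in Pcgf5KO, and 1 and 2 in Pcgf3KO. Over all genes tested 1.33% were higher and 1.89% lower in DKO, 1.31% and 1.68% in Pcgf5KO, and 1.08% and 1.28% in Pcgf3KO. Igfbp3, a secreted IGF carrier, had 28.2 and 30.1 CPM in DKO, 29.9 and 30.8 CPM in Pcgf5KO, 35.1 and 34.1 CPM in Pcgf3KO, against 53.5 CPM in WT. It fell in DKO (-0.87 ± 0.11, adjusted p = 0.00388), Pcgf5KO (-0.82 ± 0.11, adjusted p = 0.00737) and Pcgf3KO (-0.63 ± 0.11, adjusted p = 0.0211). The adaptor gene Irs2 fell too, with log2 fold changes of -0.98 ± 0.17 in DKO (adjusted p = 0.0192), -1.10 ± 0.18 in Pcgf5KO (adjusted p = 0.015) and -0.90 ± 0.17 in Pcgf3KO (adjusted p = 0.0299). The genes of the Igf2 mRNA binding proteins moved apart. Igf2bp3 had 9.75 and 5.58 CPM in DKO, 27.4 and 28.1 CPM in Pcgf5KO, 21.8 and 19.6 CPM in Pcgf3KO, against 22.9 CPM in WT. It was lower in DKO than in WT (-1.59 ± 0.24, adjusted p = 0.0103), Pcgf5KO (-1.86 ± 0.21, adjusted p = 0.0112) and Pcgf3KO (-1.44 ± 0.21, adjusted p = 0.0134). Igf2bp2 rose in DKO (0.51 ± 0.09, adjusted p = 0.0192) and Pcgf3KO (0.64 ± 0.09, adjusted p = 0.00834). Igf1r, the receptor that signals for IGF2, had 30.4 to 39.9 CPM and was not called.

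Of 25 other imprinted genes tested 1 was lower in each knockout and 0 higher. Their medians were 0.01 in DKO, -0.05 in Pcgf5KO and -0.11 in Pcgf3KO. Over all genes tested 1.33% were higher and 1.89% lower in DKO, 1.31% and 1.68% in Pcgf5KO, and 1.08% and 1.28% in Pcgf3KO. Cdkn1c, the maternal growth inhibitor gene of the Kcnq1 domain, had 44.9 and 66.1 CPM in DKO, 67.8 and 72.1 CPM in Pcgf5KO, 50.4 and 47.2 CPM in Pcgf3KO, against 97.6 CPM in WT. It fell in DKO (-0.81 ± 0.18, adjusted p = 0.0449) and Pcgf3KO (-1.0 ± 0.18, adjusted p = 0.0231). Sfmbt2, a paternal Polycomb-related gene, had 99.6 and 80.7 CPM in DKO, 62.1 and 61.1 CPM in Pcgf5KO, 83.7 and 82.8 CPM in Pcgf3KO, against 114 CPM in WT. It fell in Pcgf5KO (-0.88 ± 0.12, adjusted p = 0.00801), and DKO was higher than Pcgf5KO (0.55 ± 0.11, adjusted p = 0.0381), the directions that Peg10 and Igf2r had in the same libraries. Of 29 Polycomb subunit genes 2 were higher and 0 lower in DKO, 1 and 1 in Pcgf5KO, and 2 and 1 in Pcgf3KO. The lower ones were Pcgf5 in Pcgf5KO (-0.94 ± 0.18, adjusted p = 0.0292) and Pcgf3 in Pcgf3KO (-0.79 ± 0.14, adjusted p = 0.021). Suz12, a core subunit of the complex that methylates histone H3, rose in DKO (0.76 ± 0.12, adjusted p = 0.0131), Jarid2 in DKO (0.42 ± 0.10, adjusted p = 0.0471) and Pcgf3KO (0.54 ± 0.10, adjusted p = 0.0224), and Phf19 in Pcgf5KO (0.49 ± 0.10, adjusted p = 0.0373) and Pcgf3KO (0.81 ± 0.10, adjusted p = 0.00507).

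The number of calls depended on single libraries. Of the 22 calls among the 43 genes in the 7-library fit, 4 passed without any one of the 6 knockout libraries: Grb10, Mest and Nnat in DKO against WT, and the Igf2 interaction. All 4 rest on the single full WT library, which could not be left out of them. Without Pcgf3KO replicate 1 or 2, or Pcgf5KO replicate 1, 6 of the 22 remained, and without Pcgf5KO replicate 2 there were 7. Without DKO replicate 1 or 2 all 22 remained and more were added, with 8 and 12 of the genes lower and 3 and 10 higher in DKO against WT, beside 16.2% and 34.5% of all genes called. The sign of none of the 22 changed in any of these fits, which share most of their libraries. For 2 libraries against 2 an exact permutation test of 1 gene could not go below 0.333, so each call rests on the spread shared over genes.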

How the data were processed

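Poly-A RNA libraries were made with a kit that does not mark strand, per the labels' protocols. The files deposited by the authors hold raw counts of reads per Ensembl gene, per library and not normalized. The submitters' processing notes name the build mm10 and the tools HTSeq 0.6.0, Cufflinks 2.2.1 and TopHat2 2.0.12, without their roles; how reads shared by overlapping genes were counted is not given in the sources used here. Symbols came from GENCODE mouse release 21 (46488 of 47069 IDs matched), and 0 rows named no gene.

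Counts were analysed with edgeR 4.0.16 in R 4.3.3 (filterByExpr, TMM, glmQLFit, glmQLFTest, Benjamini-Hochberg over all genes tested, threshold 0.05). The main fit used the 7 full tables (15669 genes, 3 residual degrees of freedom) with WT replicate 2 alone, which is assumed to vary like the other groups. A second fit used 8 libraries on the 8093 genes listed in all tables (2702 tested, 4 residual degrees of freedom). CPM were computed on TMM-scaled library sizes, and standard errors are the log2 fold change over the square root of F. The code of the 7-library edgeR fit was run on simulated data, whose outcome is not given here. Counting error and single WT libraries limit the precision, and depth was 12652616 to 19923964 counts in the full tables.

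Alternatives were DESeq2 1.42.0, RLE size factors, no filter, the replicate number as a block, leaving out each library, and leaving out both DKO libraries. Values per library are given for called genes, genes of the same domain and genes of at least 10 CPM on average, the others by range. From each further list up to 4 genes called against WT were named by smallest p, with Zfp57, Dnmt1, Igf1r, Pou5f1, Krt8 and the marker genes at or near 0 chosen after their values were seen, as was Pcgf5, the fifth Polycomb gene called. The 43 genes and all lists were chosen with earlier results of these data known.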

Additional observations from a re-analysis of the deposited data

Results flagged for a closer look

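The DKO change differed from the sum of the single-knockout changes, by edgeR's test of the interaction itself, for 4 genes in the 7-library fit and 1 in the 8-library fit. For Igf2 the interaction was 2.60 ± 0.29 (log2, adjusted p = 0.0031). Peg10 had 0.66 ± 0.12 (adjusted p = 0.0188) and Igf2r 0.61 ± 0.12 (adjusted p = 0.0289). That of Ascl2 was -1.2 ± 0.22 (adjusted p = 0.0189). Asb4, with both WT libraries, had 2.57 ± 0.65 (adjusted p = 0.0387) on 4 to 30 counts a library. In the 7-library fit each interaction takes the single WT library with a weight of 1, so an error in that library enters it whole. For scale, 3.79% of all genes tested had an interaction called in the 7-library fit, and 3.52% had one above 0 in the 8-library fit.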

How the results depend on the processing

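The counts of calls moved widely: over 252 recomputed calls of the imprinted genes 174 passed again. Of these 252, 0 changed sign, but the refits use mostly the same libraries. In the 7-library fit every refit of a comparison with WT or of the interaction kept WT replicate 2. These refits could therefore not show whether the directions hold with another WT library. Of the 22 calls in the 7-library fit, 22 passed with RLE size factors, 22 without a filter, 20 with DESeq2 (lost were Plagl1 in Pcgf5KO and Igf2 in DKO against WT) and 21 with the replicate number as a block (lost was Plagl1). Deviations of same-numbered libraries from their groups correlated at -0.014, 0.135 and 0.01 in the 7-library fit. In the 8-library fit the correlations were -0.062 to 0.197, the highest for WT with DKO. The numbers may not pair cultures, so the block was kept as an alternative only. Further list genes were not recomputed. Over all genes, the calls without a filter were 1474 in DKO, 1222 in Pcgf5KO and 1105 in Pcgf3KO against WT, 2312 for DKO against Pcgf5KO, 1355 for DKO against Pcgf3KO, 224 for Pcgf5KO against Pcgf3KO and 1904 for the interaction. In the same order the 8-library fit called 219, 233, 149, 64, 14, 5 and 187 genes, and with the block 312, 303, 201, 65 (DKO against Pcgf3KO), 12 (Pcgf5KO against Pcgf3KO) and 320 (interaction). In the 7-library fit the block gave 1532 for DKO against Pcgf5KO, 499 for DKO against Pcgf3KO, 62 for Pcgf5KO against Pcgf3KO and 1305 for the interaction. DESeq2 gave 810 for DKO against Pcgf5KO and 79 for Pcgf5KO against Pcgf3KO. With both DKO libraries left out there were 4120 calls in Pcgf5KO against WT, 3158 in Pcgf3KO against WT and 1903 between the single knockouts. Leaving out 1 library gave 165 to 5379 in DKO, 37 to 4119 in Pcgf5KO and 46 to 3167 in Pcgf3KO against WT, 3 to 6583 for DKO against Pcgf5KO, 7 to 5571 for DKO against Pcgf3KO, 3 to 1909 between the single knockouts and 35 to 5712 for the interaction. The DKO libraries were further apart than those of either single knockout, and the cause of these shifts was not tested.

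Among the imprinted genes, the number higher and lower without a filter was 4 and 7 in DKO against WT, 3 and 7 in Pcgf5KO and 3 and 8 in Pcgf3KO. It was 7 and 4 for DKO against Pcgf5KO, 4 and 2 for DKO against Pcgf3KO, 1 and 1 between the single knockouts and 6 and 3 for the interaction. With DESeq2 1 was higher and 3 lower in DKO against WT, 0 and 5 in Pcgf5KO and 1 and 5 in Pcgf3KO. DESeq2 had 4 higher and 2 lower for DKO against Pcgf5KO, 0 and 2 for DKO against Pcgf3KO, and 1 and 1 between the single knockouts. With the block 1 was higher and 4 lower in Pcgf3KO against WT. The block had 5 higher and 3 lower for DKO against Pcgf5KO, 1 and 2 for DKO against Pcgf3KO, and 1 and 0 between the single knockouts. Without both DKO libraries 7 were higher and 10 lower in Pcgf5KO, 9 and 11 in Pcgf3KO, and 3 and 6 between them. Over all genes the calls were 27%, 20.7% and 12.5% there. Without a filter they were 5.79%, 4.8% and 4.34% in DKO, Pcgf5KO and Pcgf3KO against WT, then 9.07%, 5.32%, 0.879% and 7.47% in the order above. With DESeq2 they were 3.3%, 3.18% and 2.48% in DKO, Pcgf5KO and Pcgf3KO against WT. DESeq2 gave 5.17% for DKO against Pcgf5KO, 2.38% for DKO against Pcgf3KO and 0.504% between the single knockouts. The block gave 2.65% in Pcgf3KO against WT, 9.78% for DKO against Pcgf5KO, 3.18% for DKO against Pcgf3KO and 0.396% between the single knockouts. In the 8-library fit, where 5 could be tested, 1 had an interaction above 0, and 2 with the block. With or without the block 1 was lower in Pcgf3KO against WT, 0 were lower in the other comparisons and 0 higher for DKO against Pcgf5KO. Leaving out 1 library gave 0 to 10 higher and 3 to 12 lower in DKO, 0 to 7 and 0 to 10 in Pcgf5KO, 0 to 9 and 0 to 11 in Pcgf3KO, 0 to 12 and 0 to 9 for DKO against Pcgf5KO, 0 to 11 and 0 to 8 for DKO against Pcgf3KO, 0 to 3 and 0 to 6 between the single knockouts, and 1 to 11 and 0 to 7 for the interaction. The paternal median in Pcgf5KO was -0.19 with the block, -0.23 with RLE, DESeq2 or no filter and -0.21 without DKO, that in Pcgf3KO -0.16 with the block. The maternal median was 0.07 with the block and 0.12 without a filter in DKO, and 0.06 and 0.08 for the interaction. Leaving out 1 library moved the paternal median over -0.24 to -0.08 in DKO, -0.23 to -0.20 in Pcgf5KO, -0.22 to -0.11 in Pcgf3KO, 0.04 to 0.15 for DKO against Pcgf5KO, -0.12 to -0.04 between the single knockouts and 0.20 to 0.34 for the interaction. It moved the maternal median over -0.01 to 0.11 in DKO, -0.11 to 0.03 in Pcgf3KO, 0.03 to 0.19 for DKO against Pcgf3KO, 0.01 to 0.05 between the single knockouts and -0.02 to 0.15 for the interaction. Depth limits H19, Airn, Asb4, Usp29 and Kcnq1, with at most 30 counts in each library.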
